A study of Mus musculus with 12 samples.

Results

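The 32 genes of cholesterol and fatty acid synthesis were followed in the striatum of mice given morphine, with or without sodium butyrate, or saline. The genes were chosen by name: 7 measured enzymes lead from acetyl-CoA to squalene, 10 lead from squalene to cholesterol, 5 are regulators or carriers of sterols, and 9 make or modify fatty acids. Of 32 listed genes, 31 were measured, through 34 probe sets, among 19935 genes on the array. Acat2, a thiolase that joins acetyl-CoA units, had no probe set named for it alone and is not analysed here.

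All mice were male Swiss-Albino mice of 2 months, and each array held striatal RNA pooled from 4 animals. Butyrate-morphine mice (3 arrays) received sodium butyrate, 300 mg/kg, a histone deacetylase inhibitor, followed at once by morphine, 20 mg/kg, in each of 6 induction trials. Morphine mice (3 arrays) received saline in place of butyrate before morphine, 20 mg/kg, in the same 6 trials. Saline mice (6 arrays) received vehicle alone in both injections of each trial. After 7 days a single challenge injection was given, and RNA was taken 1 h later. The sources disagree on that challenge: the protocol text gives morphine, 20 mg/kg, to every mouse, while the source names of the samples give the saline mice a saline challenge. A difference from saline therefore cannot be assigned to the induction or to the challenge.

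Cells build cholesterol by condensing acetyl-CoA to mevalonate, joining the resulting isoprenoids into squalene, closing squalene into lanosterol and then trimming and reducing the ring. The genes of the route share control: when sterols in the endoplasmic reticulum run low, SCAP carries the SREBP transcription factors to the Golgi for cleavage, and INSIG proteins hold that complex back when sterols are plentiful. In the brain nearly all cholesterol is made locally, by glia above all, and much of it goes into myelin. Fatty acid synthesis begins from the same acetyl-CoA.

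SREBPs act with NF-Y, which binds the CCAAT box, at sterol regulatory elements in the promoters of these genes. RefSeq promoter windows of 300 bases (GRCm38.p6, 250 before to 50 after a start) were available for 24 of the 31 measured members; the others were Fdps, Fdft1, Sqle, Stard4, Fads1, Scd1 and Scd2. The printed windows belong to Cyp51, the member that passed the test in butyrate-morphine mice, to Nsdhl and Insig1, the members with the next lowest p-values that had a window, and to Hmgcs1, whose window alone among the members held the sterol element TCACNCCAC. Capitals mark CCAAT, or ATTGG where it lies on the other strand, and the shorter sterol element CACNCCAC or its reverse complement. The windows lie at chr5:4104648-4104947 (minus strand, Cyp51), chrX:72918271-72918570 (plus strand, Nsdhl), chr5:28071162-28071461 (plus strand, Insig1) and chr13:119690101-119690400 (plus strand, Hmgcs1).
Cyp51: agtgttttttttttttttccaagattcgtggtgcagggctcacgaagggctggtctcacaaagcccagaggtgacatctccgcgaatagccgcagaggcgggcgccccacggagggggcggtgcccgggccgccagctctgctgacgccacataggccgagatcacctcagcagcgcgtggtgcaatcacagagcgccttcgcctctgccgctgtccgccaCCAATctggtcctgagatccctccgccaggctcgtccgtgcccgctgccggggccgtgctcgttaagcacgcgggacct
Nsdhl: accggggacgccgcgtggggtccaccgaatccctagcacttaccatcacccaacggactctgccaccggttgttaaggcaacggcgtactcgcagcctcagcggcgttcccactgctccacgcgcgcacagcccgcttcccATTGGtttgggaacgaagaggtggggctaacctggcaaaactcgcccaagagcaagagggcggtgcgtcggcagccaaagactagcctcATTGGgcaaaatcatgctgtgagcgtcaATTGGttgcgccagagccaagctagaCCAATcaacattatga
Insig1: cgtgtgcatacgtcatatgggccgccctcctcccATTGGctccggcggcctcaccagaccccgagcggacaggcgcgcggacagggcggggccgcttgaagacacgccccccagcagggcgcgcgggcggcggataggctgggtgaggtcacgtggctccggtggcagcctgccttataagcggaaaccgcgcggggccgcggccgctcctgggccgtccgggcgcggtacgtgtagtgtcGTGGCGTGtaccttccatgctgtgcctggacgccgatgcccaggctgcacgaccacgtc
Hmgcs1: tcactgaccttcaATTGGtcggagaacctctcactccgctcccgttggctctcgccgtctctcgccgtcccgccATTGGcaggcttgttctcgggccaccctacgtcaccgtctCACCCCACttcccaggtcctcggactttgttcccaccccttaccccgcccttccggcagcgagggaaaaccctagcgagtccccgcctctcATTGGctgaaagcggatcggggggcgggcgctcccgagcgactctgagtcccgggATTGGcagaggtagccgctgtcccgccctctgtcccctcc

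CCAAT on either strand stood in a window of 20 of 24 members (83.3%), against 41.1% of 27025 genes with windows. The printed Nsdhl and Hmgcs1 windows held 4 copies each, and those of Cyp51 and Insig1 held 1 each. The sterol element TCACNCCAC, which contains CACNCCAC, was in 1 member (4.17%) against 1.44% of genes. CACNCCAC alone was in 2 members, Hmgcs1 and Insig1 (8.33%), against 7.12% of genes. The E-box CACGTG, which SREBPs can also bind, was in 6 members (25%) against 8.09% of genes, and TGACG, the half-site bound by CREB, was in 9 members (37.5%) against 23.0%. These matches describe letters in the windows and carry no test.

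Each deposited value is a difference on the log2 scale from an unstated baseline, so the level of a gene is known only as a coarse class, read from the rounding of the numbers. All probe sets of 22 of the 31 members (71.0%) were stored at 8 or more on the log2 scale, against 24.1% of all genes. The 9 members with a probe set in the lower class, 4 to 8, were Mvk, Pmvk, Mvd, Lss, Tm7sf2, Hsd17b7, Ebp, Stard4 and, for 1 of its 2 probe sets, Acaca. Of the 8 measured markers of striatal neurons 7 were in the upper class, as were 8 of 9 oligodendrocyte markers, while 0 of 8 choroid plexus markers were.

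The deposited saline arrays are mirror images in pairs (1 and 2, 3 and 4, 5 and 6), so their mean is 0 for every gene and 6 arrays hold 3 independent values. The fit counts them as 6, so its p-values against saline rest on more saline values than the table holds and can be too small, and its intervals too narrow. Each gene has 1 spread shared by all groups, so the mirrored values also enter the comparison of butyrate-morphine with morphine mice. Its p-values can likewise be too small and its intervals too narrow. A gene is said to have risen or fallen only where limma's adjusted p, by Benjamini-Hochberg over all 19935 genes, was under 0.05, and intervals are 95% intervals of the same fit.

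In butyrate-morphine mice 1 member rose against saline, Cyp51, the lanosterol demethylase, and no member fell. With both morphine groups pooled 1 member rose, Fdft1, which makes squalene. In morphine mice alone, and between butyrate-morphine and morphine mice, 0 of 31 members passed the test by limma. Shifts in the members were small: the largest difference from saline, that of Cyp51 in butyrate-morphine mice, was 0.24 on the log2 scale (1.18-fold).

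In butyrate-morphine against saline 2.48% of all genes were called, in both morphine groups against saline 4.59%, in morphine against saline 2.66%, and in butyrate-morphine against morphine 0%. Among members 1 of 31 was called in each of the first 2 comparisons, which is near the background. At an unadjusted p under 0.05 there were 6 members (19.4%) in butyrate-morphine against saline, where the background was 17.0%, and 4 members (12.9%) in morphine against saline, where it was 15.5%. Both morphine groups against saline had 8 members at that level (25.8%), with a background of 19.1%, and butyrate-morphine against morphine had 2 (6.45%), with a background of 8.62%.

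The median member was 0.04 above saline on the log2 scale in butyrate-morphine mice, where the median of all genes was 0.01, and 21 of 31 members lay above 0, against 53.6% of all genes. In morphine mice the median member was at -0.003, the median of all genes was at -0.004, and 15 of 31 members lay above 0, against 47.8% of all genes. Between butyrate-morphine and morphine mice the median member was 0.04 higher and the median of all genes 0.01 higher. The median values are descriptions of the list, and butyrate-morphine and morphine mice share their saline arrays.

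**Figure D1:**
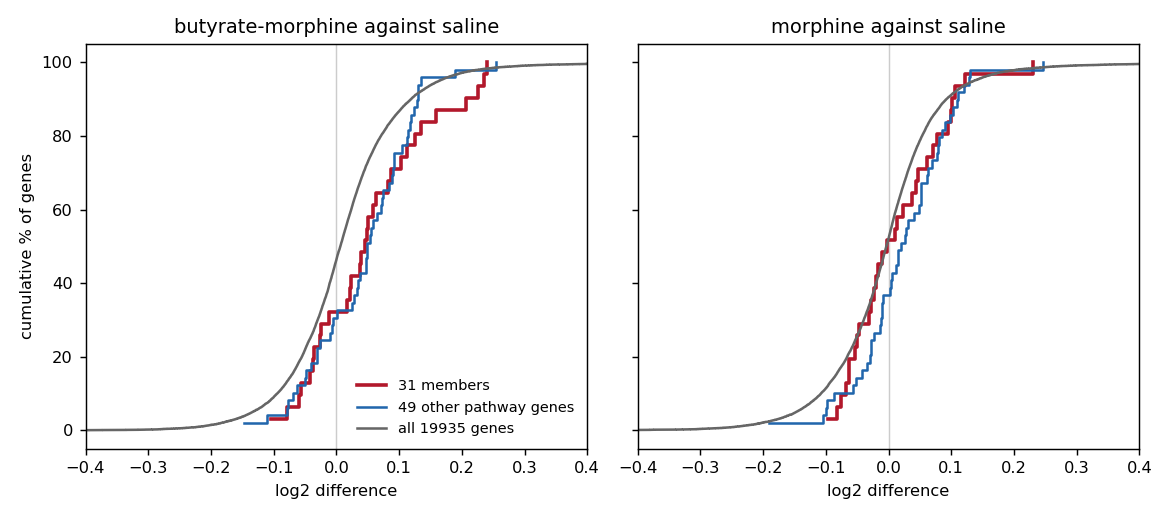
Cumulative percentage of genes (vertical axis) against the log2 difference from saline (horizontal axis) for 31 members, 49 other lipid genes and all 19935 genes, with butyrate-morphine mice on the left and morphine mice on the right; 0.4 on either side ends the axis. In butyrate-morphine mice the curve of the members lies right of that of all genes over most of its course, with a median of 0.04 against 0.01, and in morphine mice the 2 curves cross near 0.

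From acetyl-CoA to squalene, Fdft1 (farnesyl-diphosphate farnesyltransferase, the first enzyme committed to sterols) was the member with the lowest p. Its log2 values were 0.09, 0.41 and 0.18 in butyrate-morphine arrays 1 to 3 and 0.23, 0.17 and 0.29 in morphine arrays 1 to 3, while saline arrays ran from -0.10 to 0.10 around a median of 0. All 3 morphine arrays were above every saline array, and butyrate-morphine array 1 lay just inside the saline range. Against saline the mean of both morphine groups was higher by 0.23 (SE 0.050, interval 0.12 to 0.34, 1.17-fold, adjusted p = 0.0201 by limma). The group means for this gene were 0.23 ± 0.16 in butyrate-morphine mice and 0.23 ± 0.06 in morphine mice (SD, n = 3 each), and their difference had an interval of -0.16 to 0.15.

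Each group on its own missed the threshold for Fdft1, with an adjusted p of 0.0716 for butyrate-morphine and 0.0669 for morphine against saline by limma. Fdft1 is read by 2 probe sets, and both passed in the pooled comparison when adjusted over probe sets, with differences of 0.22 (adjusted p = 0.0366 by limma) and 0.24 (adjusted p = 0.0459 by limma). Array by array they differed. In the probe set at 0.22, saline array 6 (0.19) was above morphine array 2 (0.14) and butyrate-morphine array 1 (0.15). In the other, all morphine arrays were above the saline arrays, and butyrate-morphine array 1 (0.03) was below saline array 3 (0.05). The gene's call was lost without morphine array 3 (adjusted p = 0.0539 by limma), under quantile normalization (0.0958) and with saline arrays 1 to 3 alone (0.177) or 4 to 6 alone (0.219).

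The other 6 measured enzymes of this stretch were not called in any comparison. Hmgcs1, which makes the HMG-CoA of the pathway, differed from saline by 0.02 in butyrate-morphine mice and by -0.06 in morphine mice. The kinases Mvk and Pmvk, which phosphorylate mevalonate, differed by -0.04 and 0.02 in butyrate-morphine mice, and by -0.08 and 0.02 in morphine mice. Mvd, the decarboxylase that follows them, differed by -0.02 and -0.03 in those groups. Idi1, the isopentenyl-diphosphate isomerase, was at 0.19, 0.10 and 0.12 in butyrate-morphine arrays and at -0.09, -0.04 and 0.25 in morphine arrays, against -0.07 to 0.07 in saline arrays. Its 3 butyrate-morphine arrays were above all saline arrays, by 0.14 on average, with an adjusted p of 0.305 by limma. Fdps, which makes farnesyl diphosphate, was the member with the lowest difference in butyrate-morphine mice, -0.10 (interval -0.21 to 0.00, adjusted p = 0.295 by limma), and was at -0.05 in morphine mice.

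From squalene to cholesterol, 9 of 10 enzymes lay above saline in butyrate-morphine mice (53.6% of all genes) and 5 of 10 did in morphine mice (47.8% of all genes). The mean of the 10 was 0.11, 0.15 and 0.05 in butyrate-morphine arrays, 0.04, -0.03 and 0.05 in morphine arrays, and -0.05 to 0.05 in saline arrays. Butyrate-morphine arrays 1 and 2 were above every other array on this mean, and array 3 of either group lay barely above the highest saline array. Between butyrate-morphine and morphine mice 9 of the 10 differences were above 0, with a median of 0.12, and 0 passed the test by limma. Of all genes 56.9% were above 0 there, with a median of 0.01. Per gene, 2 of the 10 had an unadjusted p under 0.05 there, and the share at that level over all genes was 8.62%. Under alternative processing the Sc5d difference between butyrate-morphine and morphine mice, 0.002, changed sign in 7 of 23 settings. The same difference changed sign for Tm7sf2 in 2 of 22, for Hsd17b7 in 1 of 22 and for Sqle in 1 of 23.

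Cyp51, the P450 that removes a methyl group from lanosterol, was at 0.38, 0.10 and 0.24 in butyrate-morphine arrays and at 0.06, 0.04 and 0.18 in morphine arrays, against -0.06 to 0.06 around a median of 0 in saline arrays. All butyrate-morphine arrays were above the saline arrays, while morphine array 2 lay within their range. Cyp51 rose by 0.24 in butyrate-morphine mice (SE 0.054, interval 0.12 to 0.36, adjusted p = 0.0377 by limma). In morphine mice it was 0.09 above saline (interval -0.02 to 0.21, adjusted p = 0.443 by limma), and butyrate-morphine exceeded morphine by 0.14 (interval 0.01 to 0.28, adjusted p = 0.546 by limma), so the 2 groups were not shown to differ.

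The Cyp51 call changed with the arrays used. Without butyrate-morphine array 1 the difference was 0.17 (adjusted p = 0.163 by limma), without butyrate-morphine array 3 the adjusted p was 0.0939, and without any 1 saline array it lay between 0.0520 and 0.0827. With saline arrays 1 to 3 alone the adjusted p was 0.201, and with 4 to 6 alone it was 0.256. Cyp51 was called in 4 of 12 fits that left out an array, with adjusted p from 0.0146 to 0.163.

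Nsdhl, the dehydrogenase that works with the demethylating enzymes after Cyp51, was at 0.12, 0.30 and 0.19 in butyrate-morphine arrays and at 0.11, -0.04 and 0.23 in morphine arrays, against -0.03 to 0.03 around a median of 0 in saline arrays. Its butyrate-morphine arrays were all above the saline arrays, and morphine array 2 was below them all. The difference from saline was 0.21 in butyrate-morphine mice (SE 0.053, interval 0.09 to 0.32, adjusted p = 0.0604 by limma) and 0.10 in morphine mice (adjusted p = 0.394 by limma).

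Dhcr7, the reductase of the last step, was at 0.12, 0.17 and 0.05 in butyrate-morphine arrays and at 0.08, -0.15 and -0.01 in morphine arrays, against -0.02 to 0.02 in saline arrays. The butyrate-morphine arrays lay above all saline arrays and overlapped the morphine arrays through morphine array 1. Its difference from morphine mice, 0.14 (interval 0.03 to 0.25), had an unadjusted p of 0.0166 and an adjusted p of 0.464 by limma.

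Among the remaining enzymes of this stretch, Msmo1, the methyl sterol oxidase, differed from saline by 0.13 in butyrate-morphine mice and by -0.003 in morphine mice. Hsd17b7, which reduces the ketone left by demethylation, was at 0.10 and 0.06 in those groups. Ebp, the isomerase that shifts the ring double bond, was at 0.09 and -0.06, and Lss, which closes squalene epoxide into lanosterol, was at 0.08 and -0.05. Butyrate-morphine and morphine arrays did not overlap for Lss, with -0.004, 0.19 and 0.06 against -0.02, -0.06 and -0.07, and the adjusted p was 0.659 by limma.

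Sqle, the squalene epoxidase that starts this stretch, was at 0.04 in butyrate-morphine mice and 0.07 in morphine mice. Sc5d, the lathosterol desaturase, was at 0.04 in either group. Tm7sf2, a sterol reductase, was the only one of the 10 below saline in butyrate-morphine mice, at -0.03, and was at -0.05 in morphine mice.

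**Figure D2:**
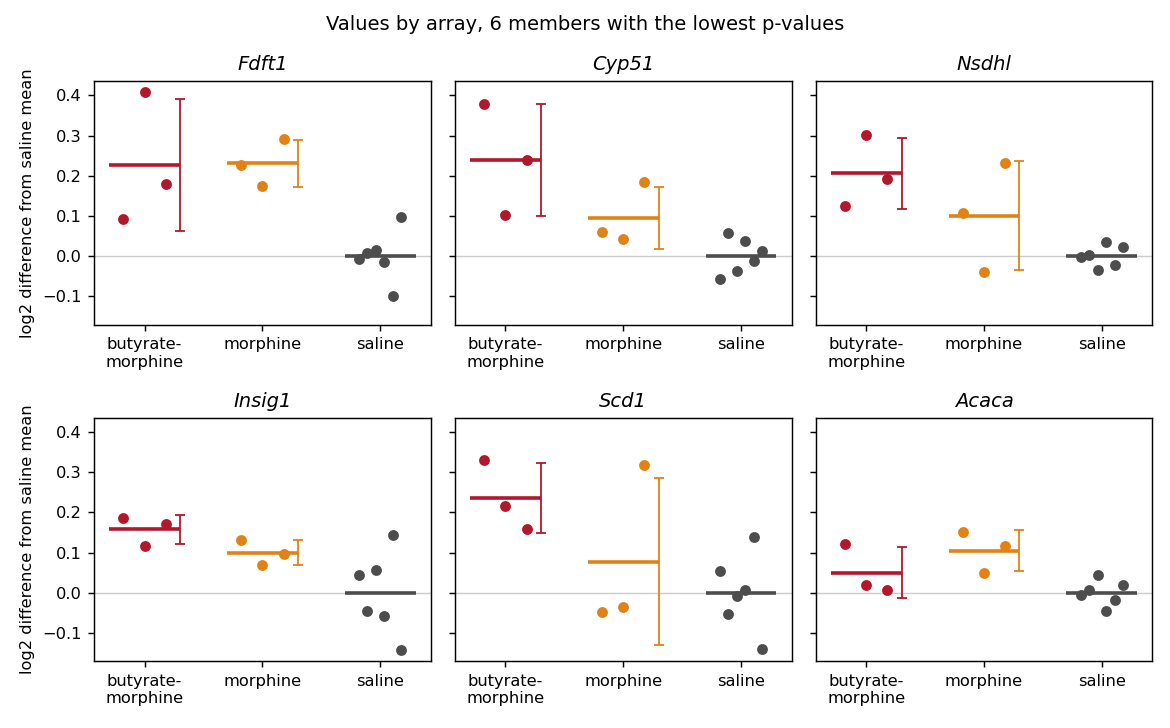
Log2 difference from the saline mean (vertical axis) for the 6 members with the lowest p-values, with 1 point per array in butyrate-morphine (3), morphine (3) and saline (6) mice, a bar at each group mean and a bracket of 1 SD beside the butyrate-morphine and morphine groups; the mirrored saline values have none. Butyrate-morphine array 1 of Cyp51 reaches 0.38 and array 2 of Fdft1 reaches 0.41, while the highest saline value of these 6 genes is 0.14.

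Among regulators and carriers, Insig1 had the lowest p. INSIG1 retains the SCAP complex and is itself induced by SREBPs. It was at 0.19, 0.12 and 0.17 in butyrate-morphine arrays and at 0.13, 0.07 and 0.10 in morphine arrays, while saline arrays spread from -0.14 to 0.14 around a median of 0. The treated arrays were all above 0, and saline array 5 was above 4 of the 6 of them. The difference was 0.16 in butyrate-morphine mice (interval 0.04 to 0.27, adjusted p = 0.144 by limma) and 0.10 in morphine mice (interval -0.01 to 0.21, adjusted p = 0.403 by limma).

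The transcription factor genes were not called in any comparison. Srebf1, whose SREBP-1 products drive fatty acid genes, was at -0.04 in butyrate-morphine mice and -0.02 in morphine mice. Srebf2, whose product drives sterol genes, was at -0.04, 0.03 and -0.02 in butyrate-morphine arrays and at -0.06, -0.07 and -0.08 in morphine arrays, against -0.05 to 0.05 in saline arrays. Its morphine arrays lay below both other groups, by 0.07 against saline (adjusted p = 0.343 by limma). Scap, the escort of the SREBPs, was at -0.08 in butyrate-morphine mice and -0.08 in morphine mice, and had an unadjusted p of 0.0455 with both groups pooled (adjusted p = 0.25 by limma). Stard4, a carrier of cholesterol between membranes, was at 0.02 and -0.01.

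**Figure D3:**
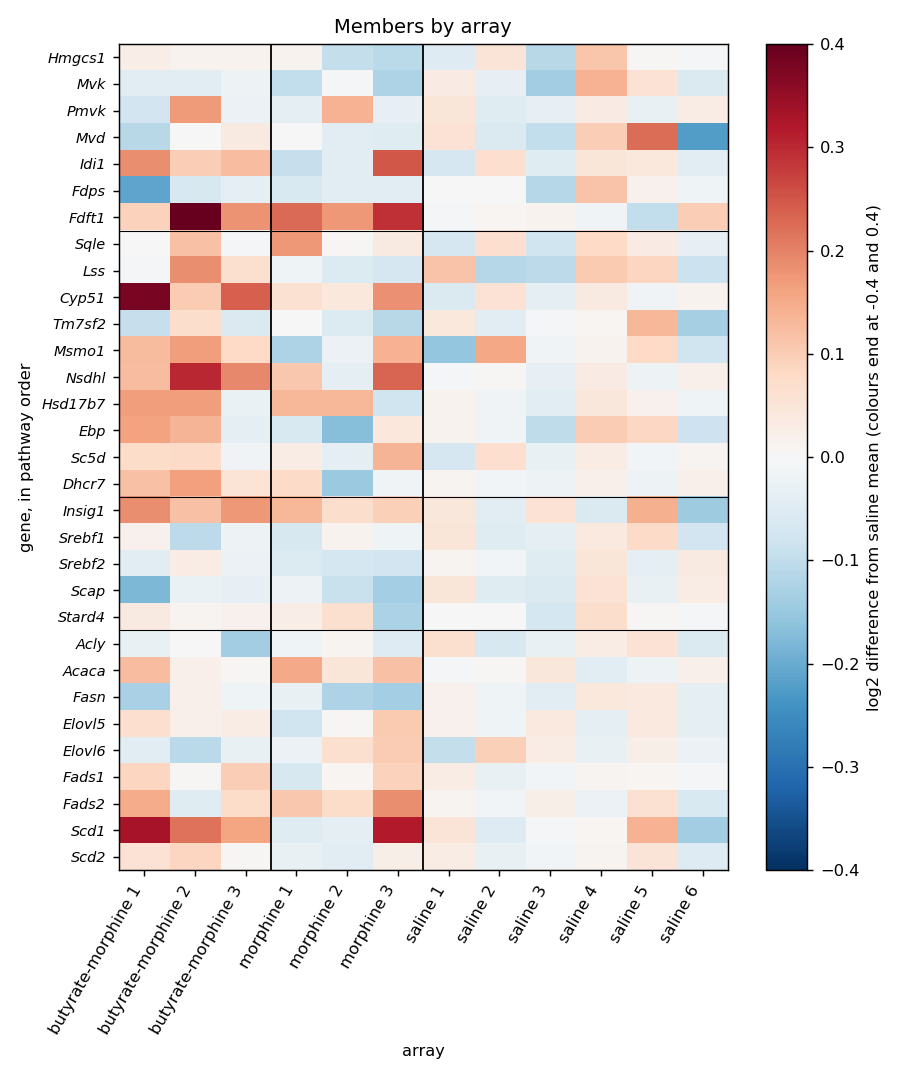
Log2 difference from the saline mean for 31 members (rows, in pathway order, with lines between the 4 groups of genes) in 12 arrays (columns, butyrate-morphine 1 to 3, morphine 1 to 3 and saline 1 to 6). Red is above and blue below the saline mean, and colours end at -0.4 and 0.4; the strongest red is at Fdft1 in butyrate-morphine array 2 (0.41) and Cyp51 in array 1 (0.38).

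Of the 9 fatty acid genes, 0 passed the test by limma in any comparison. Scd1, the desaturase that makes oleate from stearate, was at 0.33, 0.22 and 0.16 in butyrate-morphine arrays and at -0.05, -0.04 and 0.32 in morphine arrays, against -0.14 to 0.14 around a median of 0 in saline arrays. The butyrate-morphine arrays were above all saline arrays, and morphine array 3 stood with them, apart from the other two morphine arrays. The difference was 0.24 in butyrate-morphine mice (interval 0.06 to 0.41, adjusted p = 0.146 by limma), the widest interval among the members in that comparison. In morphine mice it was 0.08 above saline, and without morphine array 3 the difference was -0.04. Scd2, the desaturase most used in brain, was at 0.05 in butyrate-morphine mice and -0.02 in morphine mice.

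Acaca, acetyl-CoA carboxylase, which makes the malonyl-CoA for chain growth, was at 0.12, 0.02 and 0.01 in butyrate-morphine arrays and at 0.15, 0.05 and 0.12 in morphine arrays, against -0.04 to 0.04 around a median of 0 in saline arrays. All morphine arrays lay above the saline arrays, by 0.11 on average (interval 0.03 to 0.18, adjusted p = 0.16 by limma). Its 2 probe sets differed in size in morphine mice, at 0.16 and 0.05.

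Fads2, the delta-6 desaturase of polyunsaturated fatty acids, was at 0.15, -0.05 and 0.07 in butyrate-morphine arrays and at 0.11, 0.07 and 0.19 in morphine arrays, against -0.06 to 0.06 in saline arrays. Its morphine arrays also lay above all saline arrays, with an adjusted p of 0.183 by limma. Fads1, the delta-5 desaturase, was at 0.06 in butyrate-morphine mice and 0.01 in morphine mice. Fasn, the synthase that builds palmitate, was at -0.04 in butyrate-morphine mice and -0.10 in morphine mice (interval -0.18 to -0.01, adjusted p = 0.263 by limma). Acly, which supplies cytosolic acetyl-CoA from citrate, was at -0.06 and -0.02.

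The elongases were not called. Elovl5, which lengthens polyunsaturated chains, was at 0.04 in butyrate-morphine mice and 0.01 in morphine mice. Elovl6, which lengthens palmitate, was at -0.04, -0.11 and -0.03 in butyrate-morphine arrays and at -0.02, 0.06 and 0.10 in morphine arrays. These did not overlap, and the difference of -0.11 between butyrate-morphine and morphine mice had an adjusted p of 0.579 by limma.

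Group by group, arrays failed to overlap for 5 members in butyrate-morphine against saline, all higher (Idi1, Cyp51, Nsdhl, Dhcr7 and Scd1), where 11.7% of all genes did so. In morphine against saline there were 4, with Fdft1, Acaca and Fads2 higher and Srebf2 lower, against 8.20% of all genes. In butyrate-morphine against morphine there were 3, with Lss and Srebf2 higher and Elovl6 lower, against 10.7% of all genes. With both morphine groups against saline there were 0, against 3.29% of all genes.

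The intervals of all 4 comparisons use a spread that counts 6 saline arrays and can be too narrow. The fitted interval of every one of the 31 members lay within 1.5-fold of no difference in each of the 4 comparisons. It lay within 1.2-fold for 24 members (77.4%) in butyrate-morphine against saline, where it did so for 85.4% of all genes. In morphine against saline it did so for 30 members (96.8%, against 87.1% of all genes). There were 26 (83.9%, against 84.1%) in butyrate-morphine against morphine and 28 (90.3%, against 92.2%) in both morphine groups against saline. The median half-width of these intervals was 0.10 on the log2 scale for either group against saline and 0.12 between butyrate-morphine and morphine.

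**Figure D4:**
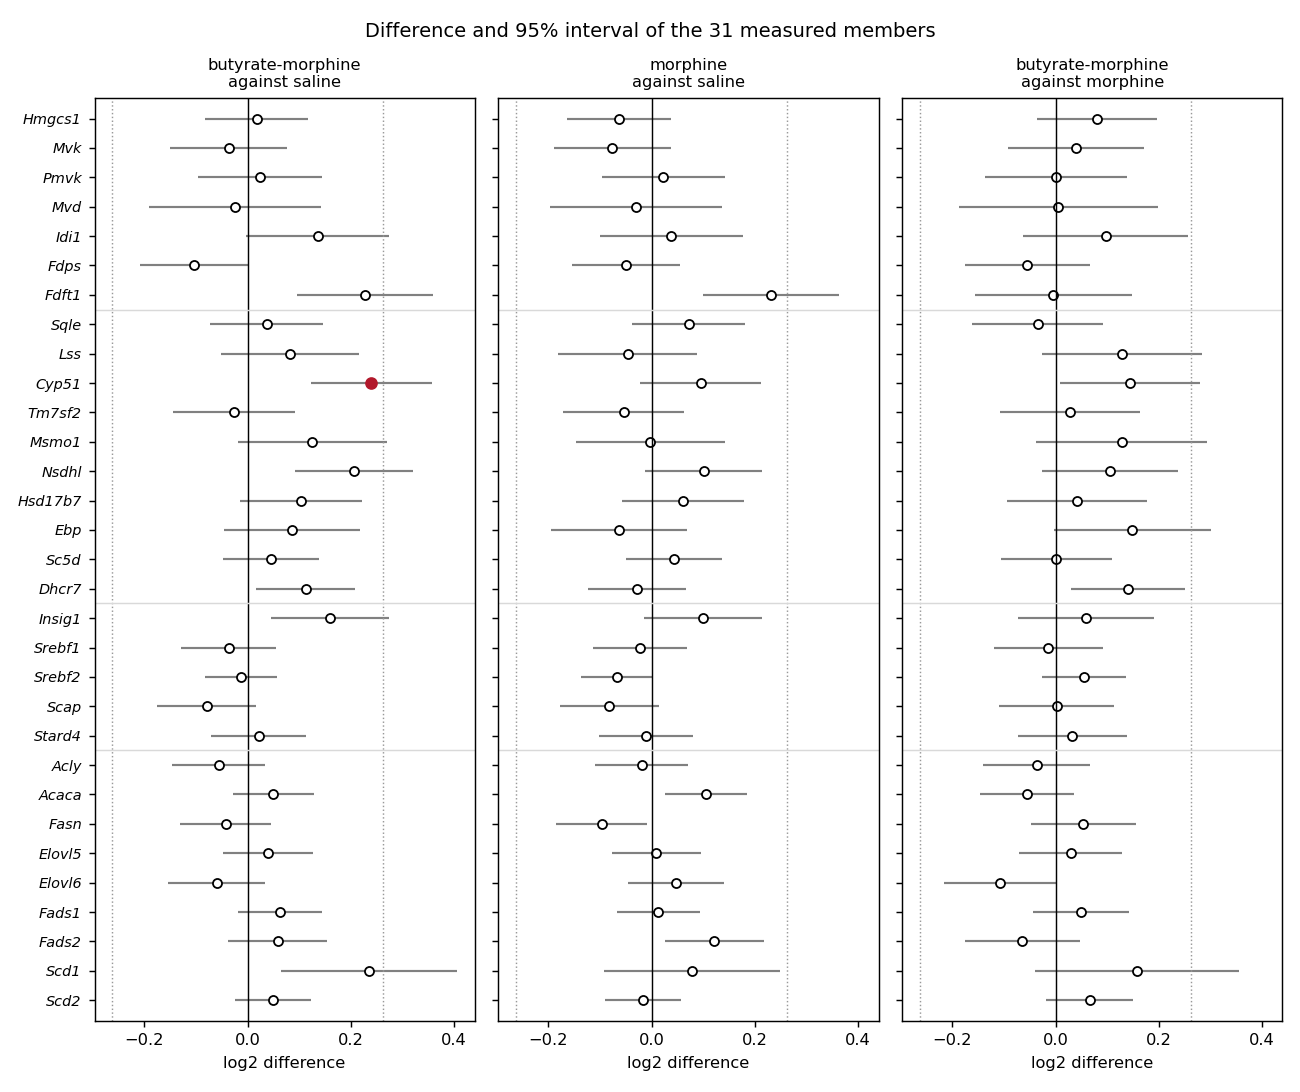
Log2 difference (horizontal axis, point) with its 95% interval (line) for 31 members in pathway order (vertical axis) in butyrate-morphine against saline, morphine against saline and butyrate-morphine against morphine; dotted lines mark 1.2-fold, and the filled point is the member with an adjusted p under 0.05. Only Cyp51, at 0.24 in the left panel, is filled, and the Fdft1 intervals in the left and middle panels start at 0.09 and 0.10.

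Neighbouring lipid genes were taken from 4 further lists, 49 genes measured of 56 listed. In butyrate-morphine against saline 2 of the 49 rose and 0 fell, where 2.48% of all genes were called. In morphine against saline 0 rose and 1 fell, where 2.66% were called. In both morphine groups against saline 2 rose and 1 fell, where 4.59% were called. These counts were near the background. In butyrate-morphine against morphine 0 passed, with 1 at an unadjusted p under 0.05 by limma (2.04%, against 8.62% of all genes). The median difference of the 49 genes from saline was 0.05 in butyrate-morphine mice and 0.02 in morphine mice. The medians of all genes were 0.01 and -0.004.

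Ggps1, which makes the geranylgeranyl diphosphate used to anchor small GTPases, was the 1 of 9 SREBP and isoprenoid genes to pass. It was at 0.19, 0.24 and 0.15 in butyrate-morphine arrays and at 0.12, 0.06 and 0.21 in morphine arrays, against -0.07 to 0.07 in saline arrays. Ggps1 rose by 0.19 in butyrate-morphine mice (SE 0.045, adjusted p = 0.0448 by limma) and by 0.16 with both groups together (adjusted p = 0.0264 by limma). It takes farnesyl diphosphate from the same branch point as Fdft1. In fits without 1 array its adjusted p by limma lay between 0.0313 and 0.183 in butyrate-morphine mice, under 0.05 in 4 of 12, and between 0.0161 and 0.0703 with both groups together, under 0.05 in 6 of 12.

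Cyp46a1, the neuronal cholesterol 24-hydroxylase through which the brain disposes of cholesterol, was the 1 of 14 cholesterol handling genes to pass. It was at -0.14, -0.03 and -0.04 in butyrate-morphine arrays and at -0.15, -0.25 and -0.17 in morphine arrays, against -0.04 to 0.04 in saline arrays. Cyp46a1 fell by 0.19 in morphine mice (SE 0.037, adjusted p = 0.0177 by limma) and by 0.13 with both groups together (adjusted p = 0.0295 by limma). In butyrate-morphine mice the difference was -0.07 (adjusted p = 0.378 by limma), and butyrate-morphine exceeded morphine by 0.12 (adjusted p = 0.454 by limma). The call in morphine mice held in 10 of 12 fits without 1 array and was lost without morphine array 2 (adjusted p = 0.0593 by limma) or array 3 (0.0536); that of both groups together held in 6 of 12.

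Hacd2, a dehydratase of very long chain fatty acid elongation, was the 1 of 22 further fatty acid genes to pass. It was at 0.23, 0.36 and 0.17 in butyrate-morphine arrays and at 0.20, -0.04 and 0.17 in morphine arrays, against -0.08 to 0.08 in saline arrays. Hacd2 rose by 0.25 in butyrate-morphine mice (SE 0.058, adjusted p = 0.0392 by limma) and by 0.18 with both groups together (adjusted p = 0.0481 by limma). These calls held in 4 and in 2 of 12 fits without 1 array, with adjusted p by limma up to 0.183 and 0.114. Under quantile normalization none of the Ggps1, Cyp46a1 and Hacd2 calls held, nor did any with saline arrays 1 to 3 alone or 4 to 6 alone, where the adjusted p by limma lay between 0.156 for Ggps1 and 0.330 for Hacd2, both with the groups together. With trend and robust variance the Cyp46a1 call in morphine mice alone among these calls held, and against a baseline of 0 that call had an adjusted p of 0.0509 by limma, while those of Ggps1 (0.0534) and Hacd2 (0.0655) in butyrate-morphine mice were also lost.

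Of 4 ketone body genes 0 passed by limma, and none had an unadjusted p under 0.05. The pair with the lowest p were Aacs, which returns acetoacetate to acetoacetyl-CoA, at -0.15 in butyrate-morphine mice and -0.10 in morphine mice, and Bdh1, which interconverts ketone bodies, at 0.13 and 0.02.

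All 8 choroid plexus markers rose in morphine mice and 7 of 8 did in butyrate-morphine mice, and their mean ran from 0.96 to 1.26 in butyrate-morphine arrays and from 1.30 to 1.54 in morphine arrays, against -0.14 to 0.14 in saline arrays. Of 8 endothelial markers 4 fell in each group, with array means of -0.26 to -0.16 in butyrate-morphine mice and -0.33 to -0.25 in morphine mice, against -0.05 to 0.05 in saline mice. Of 7 microglial markers 1 fell in butyrate-morphine mice and 2 in morphine mice, with array means of -0.20 to -0.12 and -0.23 to -0.13, against -0.08 to 0.08 in saline mice. The share of all genes called was 2.66% in morphine against saline and 2.48% in butyrate-morphine against saline. The part of these markers in the differences of Cyp51, Fdft1, Ggps1, Cyp46a1 and Hacd2 was not tested.

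Markers of the remaining cell types were mostly not called. Beside them, 2.48% of all genes were called in butyrate-morphine against saline and 2.66% in morphine against saline. Of 9 oligodendrocyte markers 0 passed by limma in any comparison. At an unadjusted p under 0.05 by limma there were 2 (22.2%) in butyrate-morphine against saline, where the background was 17.0%. There were also 2 in butyrate-morphine against morphine (background 8.62%) and 2 in both morphine groups against saline (background 19.1%). Morphine against saline had 1 (11.1%, background 15.5%). The mean of these markers ran from -0.01 to 0.13 in butyrate-morphine arrays and from -0.16 to 0.03 in morphine arrays. In saline arrays it ran from -0.11 to 0.11. Of 9 astrocyte markers 1 rose in each group against saline, with array means of 0.02 to 0.12 in butyrate-morphine mice and 0.03 to 0.10 in morphine mice, against -0.04 to 0.04 in saline mice. With both morphine groups pooled, 8 of the 9 had an unadjusted p under 0.05 by limma, 5 higher and 3 lower. The share at that level over all genes was 19.1%. Of 8 striatal neuron markers 0 passed in butyrate-morphine mice and 2 fell in morphine mice, with array means of -0.03 to 0.03 and -0.16 to -0.12, against -0.05 to 0.05 in saline mice. At an unadjusted p under 0.05 by limma 7 of the 8 were lower in morphine mice (87.5%, against 15.5% of all genes). In butyrate-morphine mice 2 were at that level (25%, against 17.0%). Between butyrate-morphine and morphine mice 5 were, all higher (62.5%, against 8.62%). In bulk tissue fewer cells of a type and less RNA per cell cannot be told apart, and the part of these markers in the results was not tested.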

How the data were processed

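Striatal RNA pools were hybridised to Affymetrix Mouse Gene 1.0 ST arrays, 12 in all. The authors deposited log2 differences from a baseline they do not define; the log base was read from the rounding of the numbers, whose steps are mostly those of stored values between 4 and 16. How background, normalization and probe summaries were handled is not stated by the labels or the table. Of 28815 rows, 21780 had 1 gene symbol in the platform annotation and were averaged to 19935 genes, 998 of which had several probe sets. No correction was added: array medians over genes ran from -0.017 to 0.012.

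The test was limma 3.58.1 under R 4.3.3 on all 12 arrays (lmFit and eBayes, 3 group means, 9 residual and 3.99 prior degrees of freedom), with Benjamini-Hochberg adjustment over all genes and a threshold of 0.05. The fit was tested on simulated data, where calls were required only for rises of 1.5-fold or more. That check set no requirement for differences as small as those of the members. The number of arrays limits the precision. The labels call the pools biological replicates.

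The members and lists were chosen with earlier results of these data known. All measured members are named. From each further list the genes past the threshold in any comparison are named, or else the 2 with the lowest p in both morphine groups against saline. Values in every array are given for the 6 members with the lowest p, for the named genes of the further lists, and for some other members chosen after their values were seen. Promoter sequences come from RefSeq (GRCm38.p6) and were searched in Python 3.11.15; further spellings of these motifs were looked at and are not given. Alternatives covered normalization, centring, variance prior, array weights, saline arrays, probe sets, dim genes, the replicate number as a block, left-out arrays and the threshold.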

Additional observations from a re-analysis of the deposited data

How the results depend on the processing

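No called difference changed sign under any alternative run, and the median of the members moved by less than 1 SD of the array medians of the first-named group, though in morphine against saline, where it lay near 0, it ran from -0.025 to 0.020. Members called under at least 1 setting were 5: Cyp51, Fdft1, Insig1, Nsdhl and Scd1. Over the 6 members with the lowest p and the 3 called genes of the further lists, 680 values stayed on the same side of the threshold, most of them not called in either, 32 passed only under an alternative, 94 called values missed the threshold under one and 5 uncalled values changed sign. Fdft1 between butyrate-morphine and morphine mice was at 0.0037 under quantile normalization and ran from -0.095 to 0.063 without 1 array (adjusted p 0.885 to 0.994 by limma), and Scd1 in morphine mice ran from -0.042 (without morphine array 3) to 0.141 (without morphine array 1). Median centring and testing 1 probe set at a time left the 2 members called as they were, while Hacd2, and Ggps1 in butyrate-morphine mice, lost their calls under median centring, with adjusted p up to 0.0588 by limma. A filter on mean level was not possible with centred values, so the class of stored values of 8 or more took its place, with 22 members.

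In butyrate-morphine against saline, with 1 member called, the count was 0 under quantile normalization, with trend and robust variance, and with saline arrays 1 to 3 or 4 to 6 alone, and 3 with array weights, in a fit of those groups alone, with stored values of 8 or more, and at an adjusted p under 0.1. The same comparison called 495 genes, against 100 under quantile normalization, 230 with trend and robust variance, 917 with array weights, 988 in a fit of those groups alone, 106 and 105 with saline arrays 1 to 3 and 4 to 6, 171 with stored values of 8 or more and 997 at an adjusted p under 0.1. For morphine against saline, with 0 members called, 1 was called in a fit of those groups alone, with stored values of 8 or more and at an adjusted p under 0.1. Its 531 genes became 75 (quantile), 231 (trend and robust), 100 and 96 (saline arrays 1 to 3 and 4 to 6), 239 (stored values of 8 or more) and 1018 (adjusted p under 0.1). For both morphine groups against saline, with 1 member, the count was 0 under quantile normalization and with saline arrays 1 to 3 or 4 to 6 alone, 3 with array weights, with stored values of 8 or more and at an adjusted p under 0.1, and 4 with no saline arrays and a baseline of 0. Its 916 genes became 194 (quantile), 524 (trend and robust), 1481 (array weights), 164 and 142 (saline arrays 1 to 3 and 4 to 6), 2023 (baseline of 0), 312 (stored values of 8 or more) and 1619 (adjusted p under 0.1). An adjusted p under 0.1 was applied to the same fit, so it calls more genes by definition. Fewer genes were tested under the filter. Fewer arrays were fitted with part of the saline arrays, with none of them and in fits of the compared groups alone. Beyond this the cause of the changes was not tested. Quantile normalization was applied to values already centred. In morphine against saline it called 61 genes higher and 14 lower, where the deposited values gave 273 higher and 258 lower, and in both morphine groups against saline it called 135 higher and 59 lower, where they gave 536 higher and 380 lower.

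Cyp51 in butyrate-morphine against saline had an adjusted p by limma of 0.169 under quantile normalization, 0.0731 with trend and robust variance, 0.201 and 0.256 with saline arrays 1 to 3 and 4 to 6, and 0.0717 against a baseline of 0, where Insig1 was the 1 member called. Fits without 1 array called 0 to 3 members in butyrate-morphine against saline, 0 to 1 in morphine against saline, 0 to 0 in butyrate-morphine against morphine and 0 to 3 in both morphine groups against saline. They called 213 to 728, 240 to 1053, 0 to 23 and 553 to 1368 genes in those comparisons, and the 23 came without morphine array 1. Leaving out a saline array keeps its mirror image and shifts the saline mean.

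With the replicate number as a block, 0 members were called in butyrate-morphine against saline and 0 in both morphine groups against saline. The genes called were 51 in butyrate-morphine against saline, 54 in morphine against saline and 83 in both morphine groups against saline. Some saline arrays share their number with no treated array, so they do not inform these differences. The block fit gave the same differences from saline as saline arrays 1 to 3 alone. These were 0.25 for Cyp51 in butyrate-morphine mice and 0.22 for Fdft1 with both morphine groups together. The effect of the blocks apart from this loss of saline arrays was not tested. Deviations of same-numbered butyrate-morphine and morphine arrays correlated at -0.12, -0.27 and -0.20 over genes, so arrays of the same number did not vary together. Butyrate-morphine and morphine arrays of unlike number correlated at -0.13 to 0.28, and whether they were paired in another way was not tested. Signal over background was not analysed here, so dim probes are known only through the coarse class.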
